A study of Arabidopsis thaliana with 12 samples.

Results

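The 100 genes described here were those with the largest difference between ring1ab and WT seedlings among genes that lay close to WT in 2 other Polycomb mutants, clf28swn7 and emf1-2. They came from a deposited expression table of 33602 genes, of which 21227 reached an FPKM of 1 in 3 or more of the 12 libraries. FPKM counts sequenced fragments relative to the exon length of a gene and to the depth of the library. For each mutant, the difference d was the mean log2(FPKM + 1) of its 3 libraries minus that of the 3 WT libraries. Genes had to have a d between -0.5 and 0.5 in both clf28swn7 and emf1-2, which 6683 genes had, and the 100 with the largest d in ring1ab were kept. The genes were thus chosen by their measured expression in all 12 libraries, so their differences from WT are given as a description without a test.

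RNA was taken from whole seedlings of the Col-0 ecotype at 10 days after germination, grown on agar plates in long days, with 3 biological replicates of each genotype. The ring1ab plants carry mutations in RING1A and RING1B, and the study calls this line a weak, knockdown mutant that still makes vegetative and floral organs. The clf28swn7 plants are a double mutant of the histone methyltransferases CLF and SWN, and emf1-2 is a mutant of EMF1. WT plants carry none of these mutations. The methods name a kit for total RNA while the labels give polyadenylated RNA, so the kind of RNA that was sequenced was not settled.

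Polycomb group proteins keep genes silent through marks on histones. RING1A and RING1B are RING finger proteins of Polycomb repressive complex 1 (PRC1), which attaches ubiquitin to histone H2A, whereas CLF and SWN belong to PRC2, which trimethylates lysine 27 of histone H3. EMF1 is a plant protein that works with these complexes. Some of the 100 genes belong to groups in which many members respond to outside conditions: AP2/ERF transcription factors, calmodulin-like proteins that answer touch, and genes of phosphate starvation.

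The mutated genes were read first. RING1B (AT1G03770) had 0.426, 0.377 and 0.859 FPKM in ring1ab libraries, against 7.59, 6.0 and 7.61 FPKM in WT libraries. RING1A (AT5G44280) had 200.7, 182.7 and 182.0 FPKM in ring1ab libraries, against 4.03, 5.58 and 4.63 FPKM in WT libraries. The RING1B level was thus low in ring1ab and the RING1A level high, and neither group overlapped WT for either gene. A level summed over a gene does not show whether the transcript is whole. RING1A was not one of the 100 genes, since its d in clf28swn7 was 1.24.

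Estimated from the step that 1 fragment makes in the FPKM of single-exon genes, ring1ab libraries held 18900000 to 21700000 mapped fragments, clf28swn7 libraries 14200000 to 15000000, emf1-2 libraries 19000000 to 20300000 and WT libraries 18500000 to 20300000. Markers of other tissues moved too. Of 14 embryo and seed marker genes tested, 12 were called higher in ring1ab, and their FPKM summed to between 14553 and 24732 in ring1ab libraries, against 2.25 to 13.0 in WT libraries; EM1 was listed at 0 in all WT libraries. Of 13 leaf and photosynthesis markers, 0 were called higher and 1 was called lower, with sums of 13451 to 17196 in ring1ab libraries and 20724 to 21962 in WT libraries. Root markers gave 2 higher and 1 lower of 17, with sums of 275 to 321 in ring1ab libraries and 236 to 291 in WT libraries, and flower and pollen markers gave 5 higher of 8, with sums of 29.0 to 43.0 in ring1ab libraries and 5.28 to 7.95 in WT libraries. These shifts were not particular to ring1ab. Embryo and seed markers gave 14 higher in clf28swn7 and 11 in emf1-2, and flower and pollen markers gave 8 and 7 higher. Leaf and photosynthesis markers gave 11 lower in clf28swn7 and 12 in emf1-2. Root markers gave 4 higher and 9 lower in clf28swn7, and 0 higher and 11 lower in emf1-2. The part of these tissue markers in the results below was not tested, and in whole seedlings more cells of a type and more RNA per cell cannot be told apart.

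Over the 100 genes, d in ring1ab ran between 1.38 and 4.59 with a median of 1.71, against a median of 0.04 over all 21227 genes. In clf28swn7 the 100 genes had a median d of 0.06 and in emf1-2 a median of 0.00, inside the limits that the choice set. A gene was called where its log2 fold change in limma reached 1 in either direction with an unadjusted p below 0.05, and 99 of the 100 genes were called higher in ring1ab, a count that follows from their choice. Of all tested genes, 7.16% were called higher in ring1ab and 1.03% lower. The 3 ring1ab libraries lay above the 3 WT libraries in 99 of the 100 genes, as they did in 29.4% of all tested genes. They lay above all 9 other libraries in 98 of the 100, against 7.17% of all tested genes. These counts, too, follow largely from the choice of the genes.

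**Figure D1:**
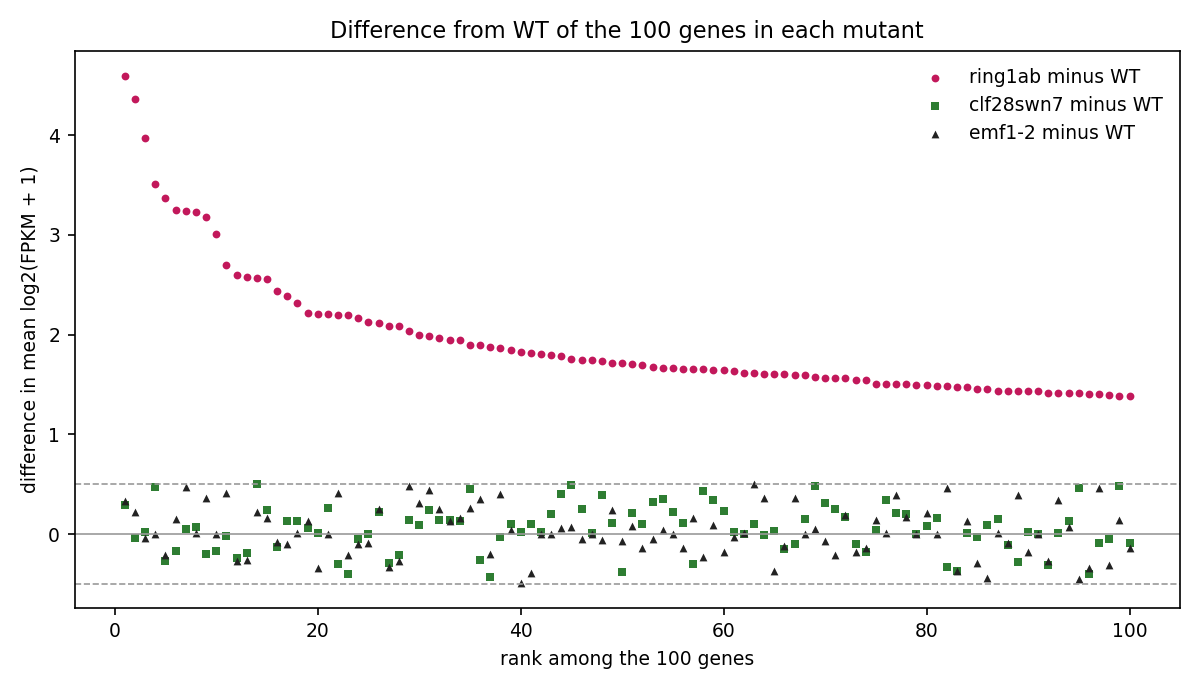
Difference in mean log2(FPKM + 1) from WT (vertical axis) for each of the 100 genes in order of rank (horizontal axis) in ring1ab, clf28swn7 and emf1-2, with dashed lines at the limits of -0.5 and 0.5. The ring1ab differences fall off steeply over the first 20 genes and run between 4.59 and 1.38, while the other points stay between the dashed lines because the genes were chosen so.

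Within those limits, the clf28swn7 libraries all lay above WT for 24 of the 100 genes and all below it for 7, against 42.3% and 35.2% of all tested genes. The emf1-2 libraries all lay above WT for 16 and all below it for 8, against 46.6% and 28.8%. RRTF1, DL1D and TIP were among the genes above WT in all libraries of both. Such separation from WT was thus less frequent than among all tested genes in both directions and both mutants, and the limit of 0.5 kept the differences small by choice. With few libraries and low WT levels in many of the genes, these counts do not show whether small differences were present.

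Most of the 100 genes were nearly silent in WT. Their median FPKM was 5.44 in ring1ab and 0.301 in WT, whereas the medians of all tested genes were 10.9 in ring1ab and 10.0 in WT. The mean WT FPKM was below 1 for 65 genes and at least 1 for 35, and for 14 every WT library was listed at 0. All 100 genes reached an FPKM of 1 in every ring1ab library, but 54 reached it in no other library, and 62 passed the filter on low values only through the ring1ab libraries. In estimated fragments, the 100 genes had a median of 134 per library in ring1ab and 7.42 per library in WT, and 53 of them had a mean under 10 fragments in WT.

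Transcription factors of the AP2/ERF family held rank 1 and 4 more of the first 10 ranks. These proteins bind short DNA elements in front of stress and hormone genes, and 8 of the 100 genes code for one: RRTF1, CBF2, AT1G33760, DDF1, CBF1, ORA47, ERF6 and AT1G19210. This group and those below were put together after the values were seen. Their d in ring1ab ran between 1.95 and 4.59 with a median of 3.12.

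RRTF1 (AT4G34410, chromosome 4, 16451876 to 16453260 in TAIR10.1, plus strand), a factor known to respond to redox changes, ranked first. It had 79.8, 10.4 and 17.57 FPKM in ring1ab libraries, 0.230, 0.418 and 0.276 in clf28swn7, 0.219, 0.517 and 0.321 in emf1-2 plants, and 0, 0.0357 and 0.176 in WT. All 3 ring1ab libraries lay far above the others, and replicate 1 stood apart from replicates 2 and 3. Its d was 4.59 ± 0.52 (SE of the limma fit, n = 3 each).

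CBF1 and CBF2 activate cold-responsive genes by binding the C-repeat element, and they lie beside each other with CBF3 on the minus strand of chromosome 4. CBF2 (AT4G25470, 13015250 to 13016235) had 18.8, 12.8 and 17.9 FPKM in ring1ab libraries, 0.301, 0.320 and 0.550 in clf28swn7, 0.537, 0.476 and 0.314 in emf1-2 plants, and 0.337, 0.837 and 0.886 in WT. CBF1 (AT4G25490, 13021780 to 13022996) had 14.4, 5.55 and 8.87 FPKM in ring1ab libraries, 0, 0.0682 and 0.258 in clf28swn7, 0.375, 0.0560 and 0.313 in emf1-2 plants, and 0.0823, 0.392 and 0.257 in WT. The ring1ab libraries of both genes stood clear of every other library, with a d of 3.37 for CBF2 and 3.01 for CBF1. CBF3 (listed in the annotation as DREB1A, AT4G25480), which lies between them, was not one of the 100 genes. It had 1.89, 0.665 and 0.806 FPKM in ring1ab libraries, 2.01, 1.81 and 1.76 in emf1-2 plants, and 0.174, 0.190 and 0 in WT, with a d of 0.88 in ring1ab and 1.35 in emf1-2. The 3 coding sequences are closely alike, so the split of reads between them is uncertain.

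DDF1 (AT1G12610), a relative of the CBF proteins, had 33.2, 2.83 and 5.54 FPKM in ring1ab libraries, against 0, 0 and 0.0252 FPKM in WT libraries. AT1G33760 had 21.7, 4.12 and 9.65 FPKM in ring1ab libraries, against 0.147, 0.238 and 0 FPKM in WT libraries. In both genes replicate 1 of ring1ab was the highest by more than 2-fold over the next library. ORA47 (AT1G74930), a regulator of jasmonate synthesis, had 21.1, 9.35 and 11.8 FPKM in ring1ab libraries, against 1.012, 1.30 and 1.98 FPKM in WT libraries. ERF6 (AT4G17490), an ethylene response factor, was well expressed in WT as well, with 65.0, 31.8 and 52.9 FPKM in ring1ab libraries and 9.68, 10.7 and 13.6 FPKM in WT libraries. AT1G19210 was the weakest of the group, with 5.89, 2.04 and 2.57 FPKM in ring1ab libraries and 0.204, 0 and 0.0762 FPKM in WT libraries.

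**Figure D2:**
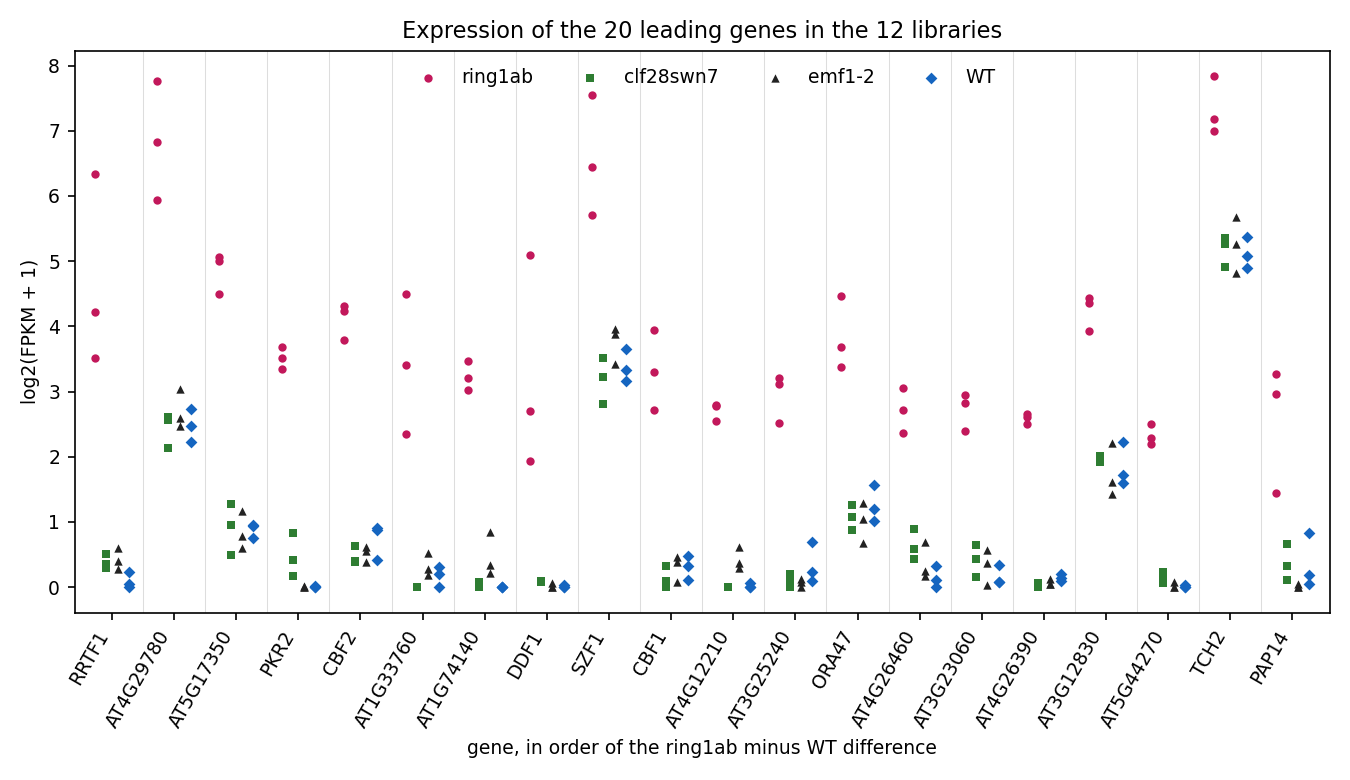
Expression as log2(FPKM + 1) (vertical axis) of the 20 genes with the largest ring1ab minus WT difference (horizontal axis), with a point for each library of ring1ab, clf28swn7, emf1-2 and WT. In all 20 genes the 3 ring1ab points lie above the 9 others, and the ring1ab points spread widely in RRTF1, AT1G33760, DDF1 and PAP14.

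Calcium-binding EF-hand proteins were 3 of the 100 genes. TCH2 (AT5G37770, chromosome 5, 14997514 to 14999619, minus strand) codes for a calmodulin-like protein whose transcript rises when a plant is touched. It had 227, 126 and 144 FPKM in ring1ab libraries, 37.3, 39.9 and 29.1 in clf28swn7, 27.2, 37.3 and 50.1 in emf1-2 plants, and 28.8, 32.8 and 40.4 in WT. The lowest ring1ab library was above the highest of the rest, and the other 3 genotypes overlapped. CML23 (AT1G66400), a close relative of TCH2, had 11.8, 10.14 and 13.3 FPKM in ring1ab libraries, against 2.37, 2.99 and 3.86 FPKM in WT libraries, and AT3G01830 had 14.5, 1.12 and 1.83 FPKM, against 0.0832, 0.194 and 0.0425 FPKM. The ring1ab libraries of CML23 lay close together, whereas in AT3G01830 replicate 1 stood far above the others: its d was 2.04 with that library and 1.15 without it. TCH2 shares 723 bases with the opposite-strand gene AT5G37760, which had a mean of 0.418 FPKM in ring1ab and 0.208 FPKM in WT. AT3G01830 likewise shares 2067 bases with LYK2, and where the counting took no account of strand such pairs cannot be separated.

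The 250 bases in front of each annotated gene start were searched on both strands for 13 short motifs. The motif CGCGTT, known as the rapid stress response element, was added to the search after the values were seen. It occurred in front of 10 of the 100 genes, against 2.58% of all 37897 promoters of the same length and 2.80% of those of tested genes. The 10 were CBF2, TCH2, AT5G16360, AT1G19210, EXLA3, SKS2, CML23, AT5G39580, XTH18 and AT1G32928. The promoters of TCH2 (chr5:14999620-14999869, minus strand) and CBF2 (chr4:13016236-13016485, minus strand) are shown in TAIR10.1 sequence because they hold the motif in 2 of the leading genes, with every match on either strand in capitals. In TCH2 the capitals hold 4 overlapping matches, which form 2 copies of a palindrome.
TCH2: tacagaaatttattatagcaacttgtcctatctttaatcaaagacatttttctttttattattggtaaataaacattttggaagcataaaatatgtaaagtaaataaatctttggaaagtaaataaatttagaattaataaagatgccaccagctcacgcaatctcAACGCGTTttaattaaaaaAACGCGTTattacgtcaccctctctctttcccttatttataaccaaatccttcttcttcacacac
CBF2: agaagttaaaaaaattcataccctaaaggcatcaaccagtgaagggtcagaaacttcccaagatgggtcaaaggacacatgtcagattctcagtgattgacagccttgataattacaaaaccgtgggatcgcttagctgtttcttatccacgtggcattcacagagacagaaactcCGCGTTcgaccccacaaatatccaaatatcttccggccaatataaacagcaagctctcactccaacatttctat

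The other 12 motifs made up the first search, and their shares lay on both sides of those in all promoters. The W-box core TTGAC was found in front of 47 of the 100 genes, against 43.9% of all promoters. The G-box CACGTG was found in 7, against 5.39% of all promoters and 7.43% of those of tested genes. For the G-box alone the 100 genes lay between these shares. The as-1 core TGACG was found in 22, against 18.1% of all promoters. The dehydration-responsive element core CCGAC was found in 11, against 12%, and the GCC-box GCCGCC in 0, against 1.95%. The TATA box TATAAA was found in 52, against 44.6%, paired heat shock half-sites GAANNTTC in 14, against 9.44%, and the GAGA repeat GAGAGA in 13, against 21.0%. The site II element TGGGCC was found in 10, against 11.4% of all promoters and 16.2% of those of tested genes. The evening element AAAATATC was found in 4, against 5.27% of all promoters, and the telo-box AAACCCTA in 3, against 4.75%. A match is a run of letters and was not tested as a binding site.

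Genes of phosphate uptake and salvage were 4 of the 100. PAP14 and PAP17 are purple acid phosphatases, which release phosphate from organic molecules, PHT1;4 is a phosphate transporter of the plasma membrane, and MIR827 gives rise to miR827, a microRNA that targets the ubiquitin ligase gene NLA when phosphate is scarce. PAP14 (AT2G46880, chromosome 2, 19264573 to 19266456, minus strand) had 1.73, 6.79 and 8.63 FPKM in ring1ab libraries, 0.578, 0.0815 and 0.254 in clf28swn7, 0, 0.0322 and 0 in emf1-2 plants, and 0.0321, 0.776 and 0.140 in WT. PAP17 (AT3G17790) had 30.4, 65.1 and 81.9 FPKM in ring1ab libraries, against 14.8, 21.5 and 17.7 FPKM in WT libraries. PHT1;4 (AT2G38940) had 25.5, 42.2 and 39.7 FPKM in ring1ab libraries, against 11.1, 14.4 and 11.3 FPKM in WT libraries. In all of these genes the ring1ab libraries lay above WT, and replicate 1 was the lowest of the 3.

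The MIR827 locus (AT3G59884, chromosome 3, 22122760 to 22122936, minus strand) had 1.64, 5.52 and 3.56 FPKM in ring1ab libraries, 0, 0.752 and 0 in clf28swn7, 0.127, 0.236 and 0.605 in emf1-2 plants, and 0, 0.311 and 0 in WT. These values come from a locus of 177 bases and rest on an estimated 5.50, 21.2 and 12.1 fragments in ring1ab libraries, so they are coarse, and they speak of the precursor and not of the mature microRNA. The mature sequence in the TAIR10.1 annotation (chr3:22122811-22122831, minus strand) is shown with its seed, bases 2 to 8, in capitals, since MIR827 was the only microRNA gene among the 100.
miR827: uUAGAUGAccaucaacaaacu

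The P1BS element GNATATNC, which phosphate starvation regulators of the PHR1 family bind, occurred in front of 7 of the 100 genes and of 5.28% of all promoters, and in front of 2 of the 4 phosphate genes. Its matches stand in capitals in the promoters of MIR827 (chr3:22122937-22123186, minus strand), which held 3, and of PAP14 (chr2:19266457-19266706, minus strand), which held 2, while PAP17 and PHT1;4 held 0 in this window.
MIR827: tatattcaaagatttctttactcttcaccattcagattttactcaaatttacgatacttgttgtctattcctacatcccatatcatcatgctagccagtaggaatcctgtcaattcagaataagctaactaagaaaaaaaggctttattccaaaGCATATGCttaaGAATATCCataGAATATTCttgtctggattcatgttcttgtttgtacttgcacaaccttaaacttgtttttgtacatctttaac
PAP14: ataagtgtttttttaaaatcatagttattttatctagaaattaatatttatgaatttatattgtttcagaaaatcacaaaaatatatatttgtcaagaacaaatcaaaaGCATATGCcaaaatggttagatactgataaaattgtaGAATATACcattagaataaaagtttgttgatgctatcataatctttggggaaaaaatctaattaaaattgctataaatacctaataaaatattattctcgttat

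The other leading genes had mixed functions. AT4G29780, annotated as a nuclease, had 216, 60.5 and 113 FPKM in ring1ab libraries, 5.13, 4.91 and 3.38 in clf28swn7, 5.05, 7.22 and 4.54 in emf1-2 plants, and 3.68, 4.55 and 5.63 in WT. SZF1 (AT3G55980), a zinc finger protein induced by salt, had 186, 51.4 and 86.3 FPKM in ring1ab libraries, against 7.98, 9.10 and 11.6 FPKM in WT libraries. Both were clearly expressed in WT and showed the same order of ring1ab libraries, with replicate 1 the highest and replicate 2 the lowest. AT5G17350, which codes for a protein of unknown function, had 32.3, 21.5 and 31.1 FPKM in ring1ab libraries, against 0.918, 0.695 and 0.933 FPKM in WT libraries.

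PKR2 (AT4G31900, chromosome 4, 15431350 to 15438678, plus strand) codes for a chromatin remodelling factor related to PICKLE. It had 10.4, 11.9 and 9.16 FPKM in ring1ab libraries, 0.785, 0.342 and 0.132 in clf28swn7, 0, 0.00914 and 0 in emf1-2 plants, and 0, 0.0125 and 0 in WT. The ring1ab libraries lay close together, and the clf28swn7 libraries, though low, were all above WT. With a pseudocount of 1 its d was 3.51 in ring1ab and 0.47 in clf28swn7. With a pseudocount of 0.1 these were 6.66 and 2.11, so that clf28swn7 lay beyond the limit.

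AT1G74140, a rhomboid-like membrane protease, had 7.17, 10.0 and 8.28 FPKM in ring1ab libraries and was listed at 0 in all WT libraries. Its emf1-2 libraries, at 0.167, 0.269 and 0.804 FPKM, also lay above WT, with a d of 0.47. AT4G12210, a RING/U-box protein of the kind that often acts as a ubiquitin ligase, had 4.87, 5.89 and 5.97 FPKM in ring1ab libraries, against 0, 0.0404 and 0 FPKM in WT libraries. With 0.221, 0.540 and 0.299 FPKM in emf1-2 libraries it was above WT there as well, with a d of 0.41. AT3G23060, of the same class, had 4.28, 6.68 and 6.10 FPKM in ring1ab libraries, against 0.0591, 0.0552 and 0.271 FPKM in WT libraries. With RDUF2 and AT1G20823 these made 4 RING/U-box genes, whose d in ring1ab ran between 1.55 and 2.69. AT3G25240, a gene of unknown function, had 4.70, 7.63 and 8.24 FPKM in ring1ab libraries, against 0.178, 0.615 and 0.0639 FPKM in WT libraries. AT4G26390, of the pyruvate kinase family, had 4.67, 5.29 and 5.10 FPKM in ring1ab libraries, against 0.106, 0.145 and 0.0723 FPKM in WT libraries. In each gene of this paragraph with values by library, the lowest ring1ab library stood clear of the highest WT library. The emf1-2 libraries of AT3G23060, AT3G25240 and AT4G26390 overlapped WT. The ring1ab libraries of AT4G26390 lay closest together, and those of AT3G25240 spread the most.

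SAUR-like genes, whose family is named for small transcripts that auxin raises, were 3 of the 100. The first, AT3G12830, had 14.3, 19.5 and 20.6 FPKM in ring1ab libraries, against 2.04, 3.69 and 2.28 FPKM in WT libraries. AT3G09870 had a d of 1.72 in ring1ab, and AT1G17345, the last of the 100 genes, one of 1.38, which was 0.86 without replicate 1 of ring1ab.

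Cell wall proteins were 6 of the 100: XTH18, which cuts and joins xyloglucan chains, the expansin-like EXLA3, the COBRA-like protein COBL8, the cellulose synthase subunit CESA10, the extensin-like AT5G19810 and the peroxidase AT5G39580. XTH18 (AT4G30280) had 151, 43.6 and 65.9 FPKM in ring1ab libraries, against 24.4, 31.4 and 26.8 FPKM in WT libraries, and its d was 1.44 with replicate 1 of ring1ab and 0.94 without it. AT5G39580 had 95.3, 26.7 and 38.4 FPKM in ring1ab libraries, against 13.2, 16.5 and 14.2 FPKM in WT libraries. The d of AT5G39580 was 1.60 with replicate 1 and 1.08 without it. In both genes the separation from WT held in every ring1ab library, but the difference was smaller without replicate 1. CESA10 (AT2G25540) was low, with 1.41, 1.91 and 2.22 FPKM in ring1ab libraries and 0.0154, 0.0287 and 0 FPKM in WT libraries. Relatives of the copper-domain protein SKU5 were another 3, sks7, SKS2 and sks13, with a d in ring1ab between 1.45 and 1.79.

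Further genes with little or no WT expression were singled out after their values were seen. LRE (LORELEI, AT4G26466), needed in the female gametophyte to receive the pollen tube, had 2.33, 3.04 and 3.15 FPKM in ring1ab libraries, against 0, 0.198 and 0.505 FPKM in WT libraries. MGT5 (AT4G28580), a magnesium transporter known from pollen, had 1.53, 2.73 and 3.06 FPKM in ring1ab libraries, against 0.0235, 0 and 0 FPKM in WT libraries. AT4G19620, of unknown function, and AT3G55590, of a glucose-1-phosphate adenylyltransferase family, were listed at 0 in all 9 libraries outside ring1ab. AT4G19620 had 1.74, 2.23 and 1.56 FPKM in ring1ab libraries and AT3G55590 had 1.37, 1.67 and 2.11 FPKM. RE2 (AT4G02960), annotated as a retroelement, had 2.20, 2.75 and 3.10 FPKM in ring1ab libraries, against 0.0418, 0.0892 and 0.0244 FPKM in WT libraries. Of the 100 genes, 96 were annotated as protein coding, 1 as a microRNA, 2 as pseudogenes and 1 as a transcribed pseudogene.

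Of the better expressed members, SYP122 (AT3G52400), a syntaxin of the plasma membrane, had 108, 39.5 and 57.2 FPKM in ring1ab libraries, against 18.0, 19.1 and 22.8 FPKM in WT libraries. NAS4 (AT1G56430), which makes the metal chelator nicotianamine, had 15.4, 16.1 and 14 FPKM in ring1ab libraries, against 4.11, 4.93 and 6.37 FPKM in WT libraries. NIC3 (AT5G23220), a nicotinamidase, had 28.3, 41.0 and 30.8 FPKM in ring1ab libraries, against 8.70, 12.3 and 12.9 FPKM in WT libraries. In all of these the ring1ab and WT libraries did not overlap. The closely related DUF793 genes AT1G74450 and AT1G18740 were both among the 100, with a d in ring1ab of 2.20 and 2.09.

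At the end of the list the differences lay close together. The last 5 genes inside were AT2G25900 (ATCTH), the lectin gene AT3G15356, AT1G69900, AT4G29770 and AT1G17345, with d between 1.41 and 1.38, and the first 5 outside were AT1G12070, MSS3, PRK4, MAF4 and GDPD6, with d between 1.38 and 1.36. AT2G25900 was the only one of the 100 not called. It had 40.7, 32.2 and 33.3 FPKM in ring1ab libraries, 0.0153, 32.7 and 31.3 in clf28swn7, 0.0144, 33.5 and 34.6 in emf1-2 plants, and 48.6, 47.9 and 0.0456 in WT. Replicate 1 of clf28swn7, replicate 1 of emf1-2 and replicate 3 of WT were near 0 and the other libraries were alike, so its place in the list rested on those near-zero values.

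The ring1ab libraries did not carry all 100 genes at the same level. Ranking by the ring1ab mean favours genes with a single very high ring1ab library, so their spread is a description of the chosen genes and cannot be set against unchosen ones as a result. The median SD of log2(FPKM + 1) over the ring1ab libraries was 0.29 for the 100 genes and 0.13 for all tested genes, and over the WT libraries it was 0.12 and 0.10. Replicate 1 was the highest ring1ab library in 45 of the 100 genes and the lowest in 37, against 30.2% and 40.4% of all tested genes. Among the 35 genes whose WT mean reached an FPKM of 1, replicate 1 was the highest in 26 and replicate 2 the lowest in 27. Among the 65 with a lower WT level, replicate 1 was the highest in 19 and the lowest in 33.

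Replicate 1 was the highest in all 8 AP2/ERF genes, at 1.23 to 7.94 times the mean of the other ring1ab libraries. In all 4 phosphate genes it was the lowest, at 0.225 to 0.623 times that mean. Without replicate 1 the AP2/ERF genes had a median d of 2.51 in place of 3.12, and the phosphate genes one of 2.15 in place of 1.77. Over the 100 genes the median d was 1.71 with or without replicate 1, and 98 genes kept a d of at least 1 without it, all but XTH18 and AT1G17345. Replicate 1 thus took opposite places among the ring1ab libraries in the 2 gene groups. Both groups lay above WT in each ring1ab library, and no label gives a batch for these libraries.

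**Figure D3:**
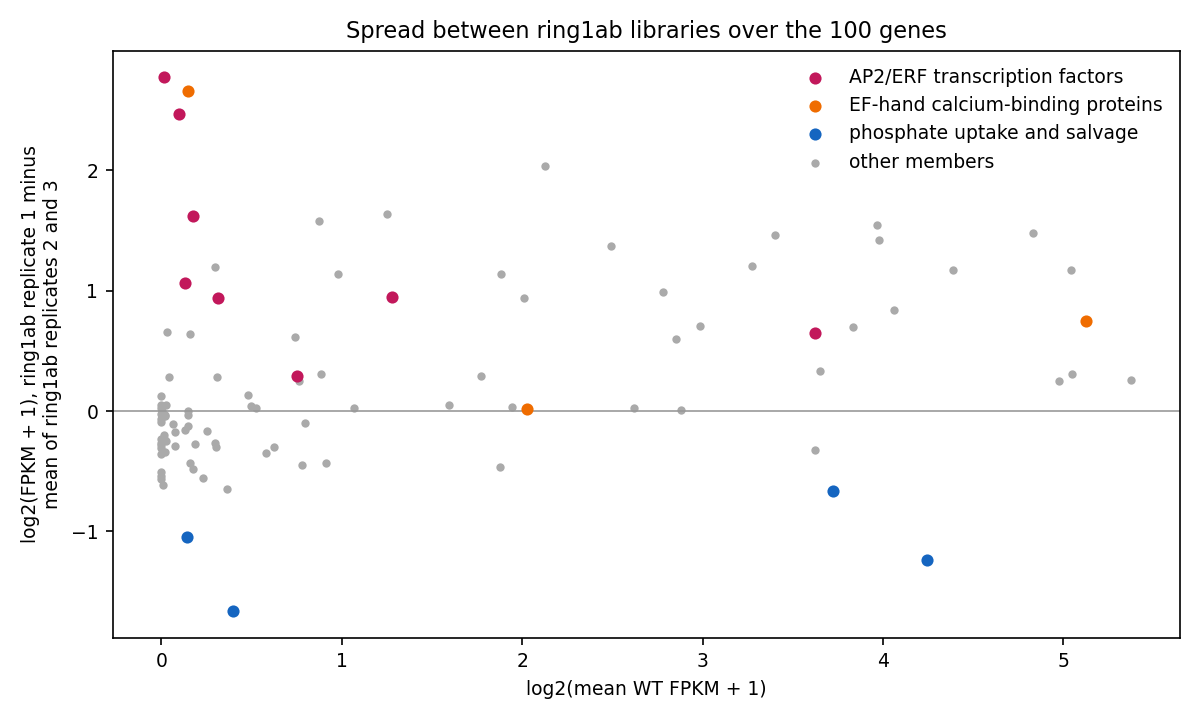
For each of the 100 genes, the log2(FPKM + 1) of ring1ab replicate 1 minus the mean of replicates 2 and 3 (vertical axis) against log2(mean WT FPKM + 1) (horizontal axis), with 3 gene groups in colour. The 8 AP2/ERF genes lie above 0, the 4 phosphate genes lie below 0, and the genes with high WT levels mostly lie above 0.

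To see the difference in libraries that did not choose the genes, the choice was repeated, filter on low values included, on the 8 libraries left without 1 replicate number, and d was then taken in the replicate left out. With an FPKM of 1 asked for in 2 of the 8 libraries, which a gene can reach through ring1ab alone, the 100 genes chosen without replicate 1, 2 or 3 shared 71, 80 and 78 genes with the list above. In the replicate left out, their median d in ring1ab was 1.62, 1.67 and 1.73, against 0.09, 0.03 and 0.00 for all genes that passed, and d was above 0 in 99, 99 and 100 of the genes, against 59.2%, 53.1% and 49.8% of all genes that passed. With 3 of the 8 libraries asked for, which shuts out genes expressed in ring1ab alone, 36, 38 and 34 genes were shared. The median d was then 1.38, 1.04 and 1.15, against 0.088, 0.024 and -0.005 for all genes that passed. It was above 0 in 94, 97 and 100 genes, against 58.9%, 52.7% and 49.3% of all genes that passed. Since most genes were not shared, these values speak of the genes chosen in this way and not of the list above. Between -0.5 and 0.5 in both clf28swn7 and emf1-2 lay 60, 63 and 59 of the 100 genes under the first filter and 42, 58 and 54 under the second. This comparison was added after the data were seen.

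The pathways to which members belong were followed in lists of genes from textbook knowledge, chosen with earlier results of these data known. Genes of a list that belong to the 100 were chosen for a high ring1ab value, so their calls in ring1ab follow from that choice. Of 15 touch and ethylene response genes, 13 were called higher in ring1ab, 7 in clf28swn7 and 7 in emf1-2, where 1 was called lower, with a median log2 difference of 2.1 in ring1ab, 0.92 in clf28swn7 and 0.86 in emf1-2. Of all tested genes, ring1ab had 7.16% called higher and 1.03% lower. The shares were 15.1% higher and 12.3% lower in clf28swn7, and 13.7% higher and 12.4% lower in emf1-2. Only TCH2 and ERF6 were among the 100. Most other genes of the list were called higher in ring1ab as well. ACS6, an enzyme of ethylene synthesis, had 72.3, 31.9 and 44.3 FPKM in ring1ab libraries and 3.59, 4.52 and 5.81 FPKM in WT libraries. Its log2 fold change was 3.10 ± 0.29 (SE), with a Benjamini-Hochberg adjusted p of 1.2e-05 in limma. STZ, a zinc finger repressor, and WRKY40 had still larger changes, of 4.99 and 4.72, and were left out of the 100 because they were raised in the other mutants too, STZ by 1.54 in clf28swn7 and 2.43 in emf1-2. EBF2 and ACS2 were not called in ring1ab. Without replicate 1 of ring1ab the median of the list was 1.78.

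Of 16 phosphate starvation genes, 10 were called higher and 0 lower in ring1ab, with a median log2 difference of 1.38, and PAP17 and PHT1;4 were among the 100. In clf28swn7, 3 were called higher and 4 lower, and in emf1-2, 1 was called higher and 6 lower. IPS1, a noncoding RNA that sequesters miR399, had 45.2, 96.6 and 72.5 FPKM in ring1ab libraries and 4.16, 6.32 and 2.64 FPKM in WT libraries, with a log2 fold change of 3.75 ± 0.39 (SE) and an adjusted p of 2.8e-05 in limma. SPX1, an inhibitor of PHR1, had 26.0, 89.6 and 119 FPKM in ring1ab libraries and 14.1, 18.25 and 15.5 FPKM in WT libraries. Replicate 1 of ring1ab was the lowest of the 3 in 15 of the 16 genes, as it was in the 4 phosphate genes of the list.

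Of 19 cold and dehydration genes, 8 were called higher and 0 lower in ring1ab, with a median log2 difference of 0.88, which was 0.64 without replicate 1. In clf28swn7, 10 were called higher and 1 lower, with a median of 1.45, and in emf1-2, 11 were called higher and 1 lower, with a median of 1.40. CBF1 and CBF2 were among the 100. The genes that CBF proteins are known to activate did not move alike. COR15A had a log2 fold change of 1.86 (adjusted p of 0.00014) and COR15B one of 1.51 (adjusted p of 8.0e-05) in limma, while RD29A (LTI78 in the annotation) had -0.11, COR47 had -0.25 and KIN1 had 0.60 and were not called. RD29A and KIN1 were higher in the other mutants, with log2 fold changes of 4.95 and 6.98 in clf28swn7.

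**Figure D4:**
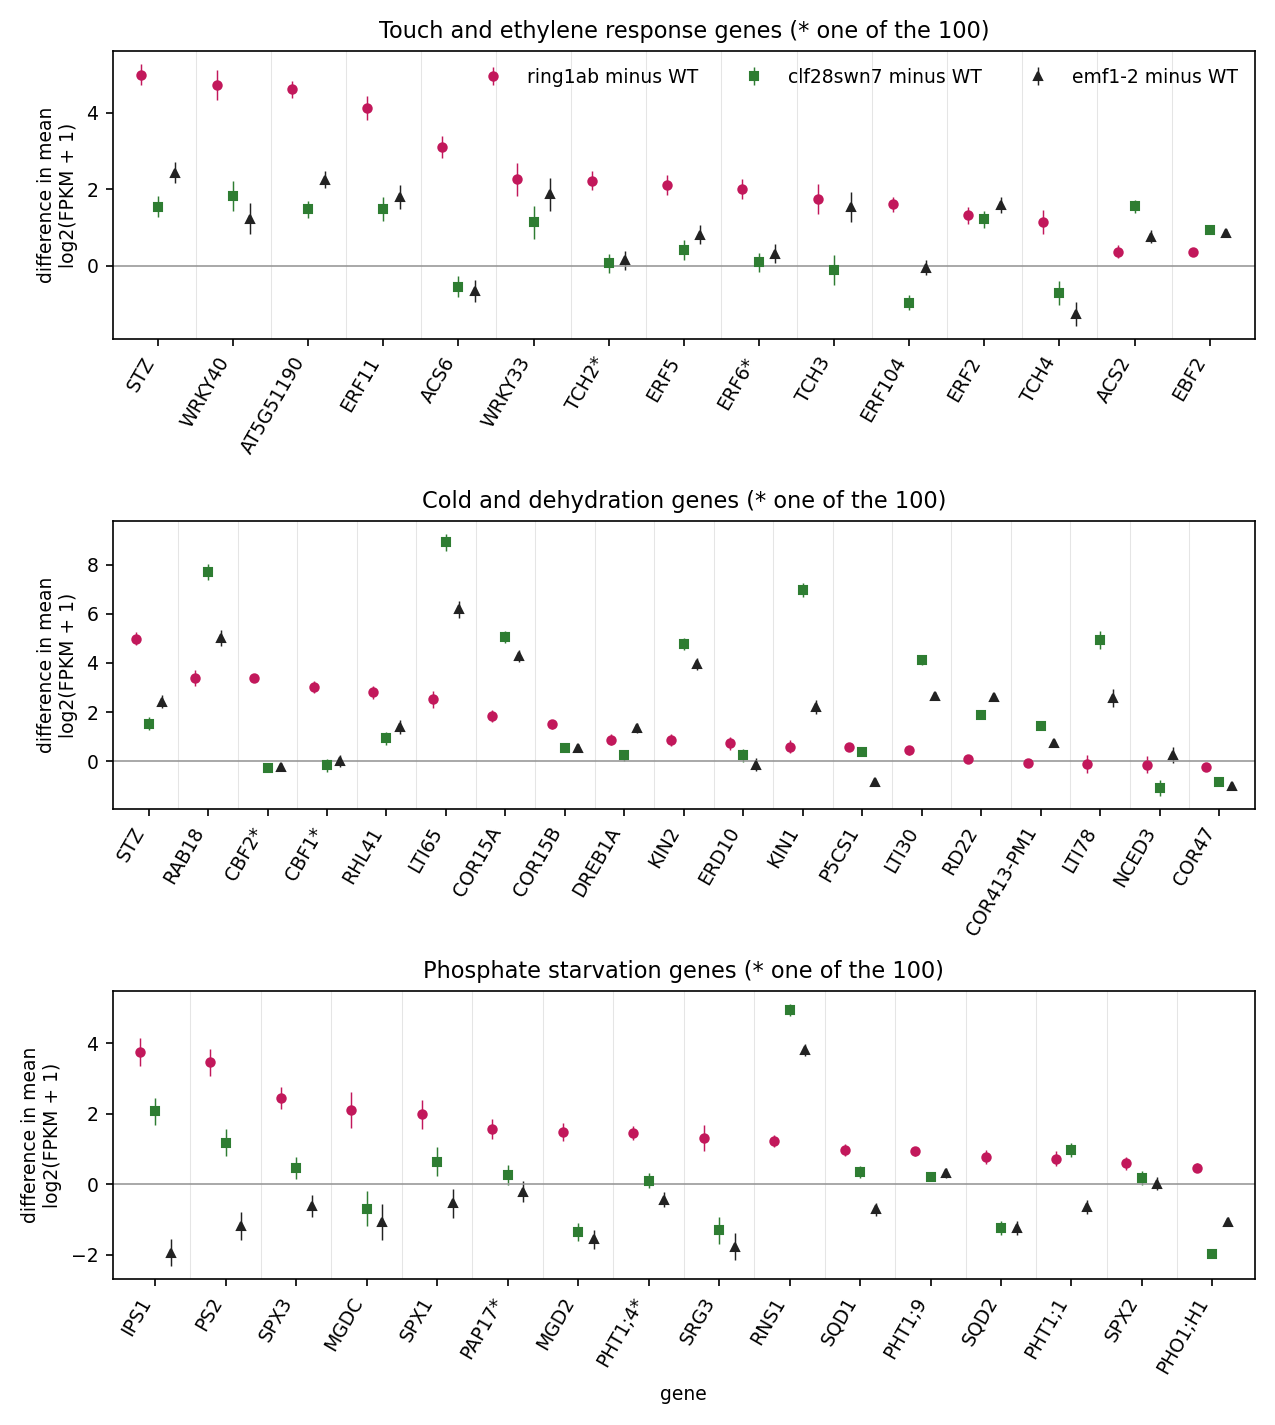
Difference in mean log2(FPKM + 1) from WT with its standard error (vertical axes) for every tested gene of the touch and ethylene, cold and dehydration, and phosphate starvation lists (horizontal axes) in ring1ab, clf28swn7 and emf1-2, with stars on genes that belong to the 100. In the touch and ethylene list 13 of 15 genes were called higher in ring1ab, and in the phosphate list several genes lie above 0 in ring1ab and below 0 in emf1-2.

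The lists with no or few members among the 100 were mixed. In ring1ab, 9 of 14 jasmonate and wounding genes were called higher, 7 of 17 heat shock genes, 4 of 4 class I KNOX genes, 5 of 22 salicylate genes with 3 lower, 3 of 21 glucosinolate genes, 2 of 17 DNA damage genes, 1 of 12 senescence genes with 1 lower, and 0 of 17 genes of endoplasmic reticulum stress, beside 7.16% of all tested genes. Several of these lists held more called genes or larger differences in the other mutants. The 4 KNOX genes were all called higher in clf28swn7 and in emf1-2 as well, with a median log2 difference of 1.46 in ring1ab, 2.76 in clf28swn7 and 2.94 in emf1-2. In clf28swn7, 7 jasmonate, 8 heat shock, 3 salicylate, 6 glucosinolate, 7 DNA damage, 4 senescence and 6 endoplasmic reticulum stress genes were called higher. The same lists had 5, 4, 15, 5, 12, 7 and 15 genes called higher in emf1-2. In the same order, 2, 1, 4, 4, 0, 3 and 0 of their genes were called lower in clf28swn7. In emf1-2, 2, 1, 1, 12, 0, 3 and 0 were called lower. The glucosinolate list thus had more genes lower than higher in emf1-2, with a median log2 difference of -1.28. The salicylate list had more lower than higher in clf28swn7. Of 16 iron deficiency genes, NAS4 was the only one called higher and 4 were called lower, among them IRT1, the iron transporter of the root. Of the 6 tested genes of PRC1 and its partners, RING1A and BMI1A (DRIP2 in the annotation) were called higher and RING1B lower. BMI1A missed the 100 narrowly: it had 16.8, 18.3 and 17.7 FPKM in ring1ab libraries and 5.83, 7.20 and 6.15 FPKM in WT libraries, with a d of 1.33.

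In gene structure the 100 genes were short. A single exon made up 44 of them, against 15.7% of tested genes, and their median exon length was 1212.5 bases, against 1699 bases. Among the 35 whose WT mean reached an FPKM of 1, 21 had a single exon. They lay on all 5 chromosomes, with 21 genes on chromosome 4, which held 15.4% of tested genes, and 17 on chromosome 5, which held 23.3%.

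Members that lay next to each other were LRE and AT4G26460, AT4G19620 and AT4G19630, and AT4G29770 and AT4G29780, all on chromosome 4. LRE and the methyltransferase-like gene AT4G26460 point away from each other, and AT4G26460 had 5.55, 7.29 and 4.17 FPKM in ring1ab libraries, against 0.247, 0.0808 and 0 FPKM in WT libraries. Its clf28swn7 libraries, at 0.353, 0.866 and 0.504 FPKM, also lay above WT. AT4G29770 ends upstream of AT4G29780 on the same strand, with 1.60, 1.87 and 1.73 FPKM in ring1ab libraries and 0.0878, 0 and 0.0448 FPKM in WT libraries. It too was above WT in clf28swn7 libraries, with 0.544, 0.332 and 0.523 FPKM. A neighbouring gene called higher in ring1ab was found for 26 of the 100 genes and for 10.3% of tested genes.

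Beside the mutated loci themselves, AT5G44270, of a microtubule-associated protein family, overlaps the end of RING1A by 8 bases on the opposite strand. It had 3.59, 3.89 and 4.67 FPKM in ring1ab libraries, against 0, 0 and 0.0275 FPKM in WT libraries, next to the RING1A level of 182.0 to 200.7 FPKM in the same ring1ab libraries. AT5G44440 lay 71.2 kb from RING1A, and AT1G04880 and AT1G05575 lay 428 and 714 kb from RING1B. The 2 members within 1 Mb of RING1A and the 2 within 1 Mb of RING1B compare with 1.79% and 2.34% of tested genes. Of the 100 genes, 18 overlap another gene of the table, 16 of them one on the opposite strand, and the strand setting of the counting was not stated.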

How the data were processed

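RNA-seq of 12 whole-seedling libraries was used, with 3 replicates each of ring1ab, clf28swn7, emf1-2 and WT as the sample titles give them. The deposited FPKM values were made by the authors with HISAT2 (TAIR10), StringTie and ballgown. Tool versions, the strand setting and any filter are not given in the sources used here. The values are scaled to mapped reads only, so depth is an estimate, and an FPKM of 0 was read only as listed at 0.

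From the FPKM values, log2(FPKM + 1) was fitted with limma 3.58.1 in R 4.3.3 over all 12 libraries without a block, for the 21227 genes that reached an FPKM of 1 in 3 or more libraries. Calls followed the study's methods (log2 fold change of 1 or more in either direction, unadjusted p below 0.05), and Benjamini-Hochberg adjustment covered all tested genes. The pseudocount of 1 understates the change of low genes. Tested on simulated data for ring1ab against WT over 21227 genes, 199 of 200 changed genes were recovered, with 23 false calls. Recovery was not given by expression level, so it does not speak of genes that are nearly silent in WT.

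The members, gene lists and motifs were chosen with earlier results of these data known. Named were RING1A and RING1B, the 20 leading members, those at the edge of the list, those near the mutated loci or next to each other, and members of the lists or of families shared by 3 or more. List names were matched in the RefSeq table of TAIR10.1, and 6 ambiguous ones were set by locus number. Positions, genes and sequences are from RefSeq TAIR10.1, whose chromosome 1 has 30427671 bases; all 100 members and 32835 of 33602 genes matched. Python 3.11.15 (numpy 2.4.6, pandas 2.3.3, matplotlib 3.10.9) made the tables and plots. Alternatives were a pseudocount of 0.1, other filters, limits and scalings, a replicate block and leaving out replicates. The study's list of marked genes was not used here.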

Additional observations from a re-analysis of the deposited data

How the results depend on the processing

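The make-up of the list depended on how low values were treated and on the limits. Of the 100 genes, 40 were chosen again with a pseudocount of 0.1, 39 with an FPKM of at least 5 in 3 or more libraries, 44 with a limit of 0.25 and 40 with a limit of 1, while 98 were chosen again without a filter, 83 with median-of-ratios scaling, 82 with TPM and 77 after subtracting the median of all tested genes. Leaving out replicates, with the 21227 genes that passed the filter on all 12 libraries kept as they were, gave between 72 and 93 of them. With a pseudocount of 0.1, 40 of the 100 genes stayed within 0.5 of WT in both clf28swn7 and emf1-2, 30 of them among those whose WT mean reached an FPKM of 1, and d was at least 1 in clf28swn7 for 16 and in emf1-2 for 12.

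In ring1ab against WT, 1520 genes were called higher and 219 lower, and leaving out a replicate gave 1419 to 1611 higher and 222 to 251 lower, with 97 to 99 of the 100 genes called. A pseudocount of 0.1 gave 2247 higher and 397 lower. The cause of these shifts was not tested. Of 240 alternative values of d in ring1ab for the 20 leading genes, 0 were reversed and the lowest was 1.77. Since these genes were picked for a large d in the same libraries, the values describe them and do not test the difference. Replicate numbers did not pair the samples: same-numbered ring1ab and WT libraries deviated with correlations between -0.13 and 0.04, and 1 of 3 ring1ab libraries correlated best with its own number. A replicate block gave 1518 genes called higher, 221 lower and 99 of the 100. Low WT values, a mean under 10 estimated fragments for 53 of the 100 genes, limit what can be said of their differences in clf28swn7 and emf1-2.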
